A study of Oryza sativa Japonica Group with 5 samples.

Results

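The abscisic acid (ABA) synthesis and catabolism genes described here are 6 rice genes, chosen by identifier from the 36475 loci listed for each library. They are NCED3 (Os03g0645900, on chromosome 3), NCED4 (Os07g0154100, chromosome 7), NCED5 (Os12g0617400, chromosome 12), ABA8OX1 (Os02g0703600, chromosome 2), ABA8OX2 (Os08g0472800, chromosome 8) and ABA8OX3 (Os09g0457100, chromosome 9). Their levels were compared between leaves of the rice mutant pls4 (2 libraries) and of wild type rice (3 libraries), both Oryza sativa of the Japonica Group. The labels describe the mutant as a knockdown and the wild type as not knocked down, and name neither the altered gene nor leaf age, culture conditions or any inoculation. The series title names rice sheath blight, a fungal disease. No label says whether libraries of a genotype came from separate plants, so the spread behind each p-value is that between libraries and may be technical in part.

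ABA is the plant hormone of water deficit, seed dormancy and stomatal closure, and it also acts in leaf senescence and in the response to pathogens. NCED enzymes cleave a cis-epoxycarotenoid in the plastid to xanthoxin, the step that usually limits ABA synthesis. ABA8OX enzymes are cytochrome P450 hydroxylases that start the main route of ABA breakdown, toward phaseic acid. The transcript levels of both families were measured here, not the hormone.

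The values are FPKM, which count fragments relative to the length of the gene and the size of the library, so that levels of different genes can be set side by side within a library. Absolute depth is unknown, and the precision of a low value cannot be given. The FPKM summed to between 736527 and 758853 per library. Spearman correlations over the tested loci were 0.988 between the pls4 libraries, 0.986 to 0.992 within wild type and 0.866 to 0.876 between genotypes. The label calls the tissue leaf and the cell type mesophyll. The 6 mesophyll markers, genes of Rubisco's small subunit, Rubisco activase and Lhcb1, summed to 14959 and 19379 FPKM in pls4 and to between 29631 and 40875 FPKM in wild type, and all 6 were called lower in pls4. The 5 vascular and secondary wall markers summed to 49.81 and 58.46 FPKM in pls4 and to between 29.23 and 35.33 FPKM in wild type, and all 5 were called higher. SUT1 gave most of each sum, with means of 36.6 FPKM in pls4 and 29.7 FPKM in wild type. CESA7 and CESA9 were under 1 FPKM in every wild type library. They were tested only because of their pls4 values, so they could be called only higher. None of these markers was listed at 0 in every library. In whole leaf RNA fewer cells of a type and less RNA per cell cannot be told apart.

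NCED5 rose in pls4 and ABA8OX2 fell slightly, while NCED3, ABA8OX1 and ABA8OX3 did not pass the test and NCED4 was too low to compare. A gene was tested where its FPKM was at least 1 in at least 2 libraries, with limma on log2(FPKM + 1), and called at a Benjamini-Hochberg adjusted p under 0.05 over all tested loci. Of the 6 genes 5 were tested, 1 was called higher and 1 lower. The same test called 52.0% of all 19637 tested loci, 33.4% as higher and 18.5% as lower in pls4, so 2 calls among 5 tested genes are not more than the share called across all loci. Fold changes are pls4 over wild type on the log2(FPKM + 1) scale, where changes of genes near 1 FPKM or below appear smaller than they are. Libraries of the genotypes did not overlap for 4 of the 5 tested genes, 1 with pls4 above and 3 with pls4 below. Among all tested loci this was so at 69.9%, with pls4 above at 45.4% and below at 24.5%. Of the genes below, NCED3 (1.15 FPKM in pls4 replicate 2, 1.17 in wild type replicate 2) was only just apart. So was ABA8OX3 (26.01 FPKM in pls4 replicate 1, 26.02 in wild type replicate 1).

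**Figure D1:**
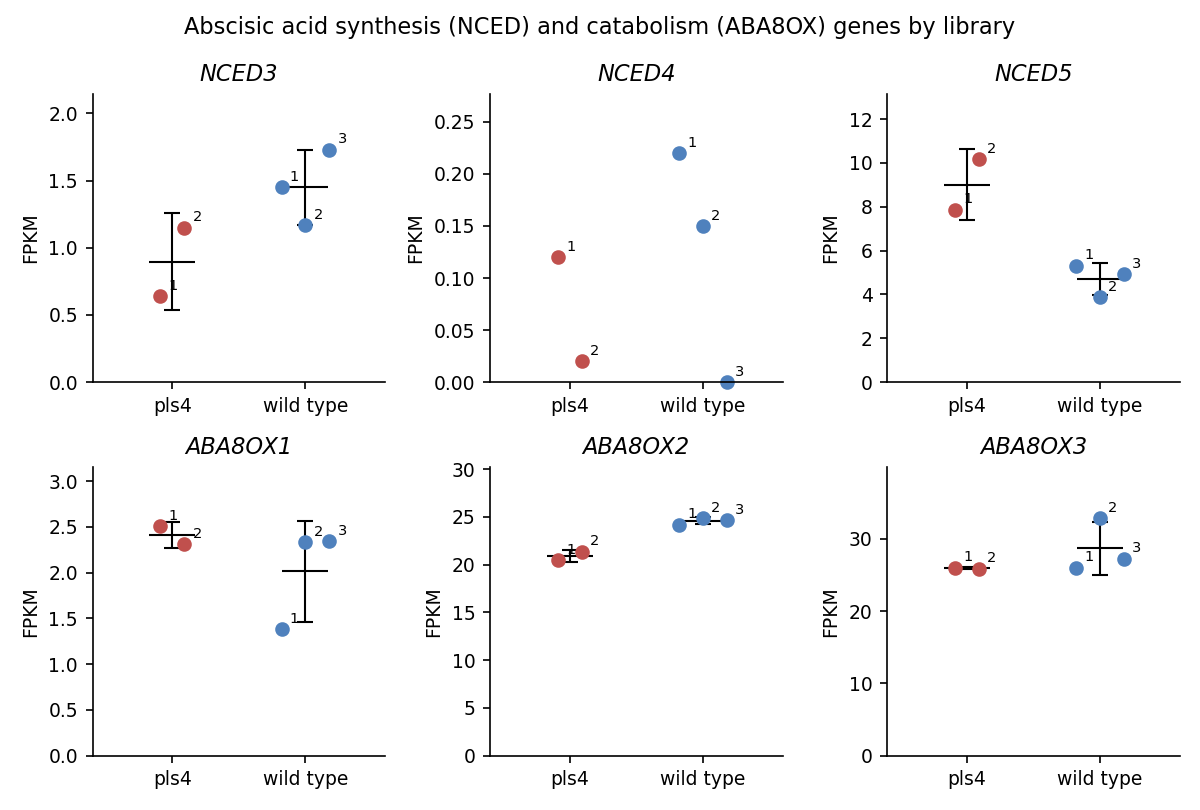
FPKM of the 6 genes in each library (points numbered by replicate; red pls4, blue wild type), with the mean and SD of each genotype as horizontal line and bars except for NCED4, whose values are near 0. Both pls4 libraries lie above all wild type libraries for NCED5 and below them for ABA8OX2, while the genotypes overlap for NCED4 and ABA8OX1.

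NCED5 encodes the synthesis enzyme that in rice has been tied to salt and water stress tolerance and to leaf senescence. It stood at 7.87 and 10.16 FPKM in the pls4 libraries, against 5.31, 3.88 and 4.93 FPKM in the wild type libraries. The genotypes did not overlap, and the lower pls4 library exceeded the highest wild type library. The means were 9.02 ± 1.62 FPKM in pls4 (SD, n = 2) and 4.71 ± 0.74 FPKM in wild type (SD, n = 3), a ratio of 1.92. The log2 fold change was 0.81 ± 0.15 (SE; 95% interval 0.45 to 1.17), with a limma adjusted p of 0.00426. This change exceeded that of 89.9% of all tested loci, whose median log2 fold change was 0.15. NCED5 was a gene of middling abundance, with a mean level above that of 41.5% of the tested loci. Its call was kept when any single library was left out and was lost when every listed locus was tested without a filter (limma, adjusted p = 0.0512). The vascular markers were higher and the mesophyll markers lower in the same pls4 libraries, and their part in the NCED5 value was not tested.

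NCED3, the synthesis gene whose overexpression in rice raises ABA and stress tolerance, was near the lower limit of what was tested. Its values were 0.64 and 1.15 FPKM in pls4, against 1.45, 1.17 and 1.73 FPKM in wild type. The higher pls4 library and the lowest wild type library differed by 0.02 FPKM, so the genotypes were only just apart. Only the higher of the pls4 libraries reached 1 FPKM, so NCED3 passed the filter only with wild type libraries counted. The log2 fold change was -0.38 ± 0.17 (SE; 95% interval -0.77 to 0.02), and the gene did not pass the test (limma, adjusted p = 0.0974). The interval includes 0. Pls4 replicate 1 had the lowest value, and without it the log2 fold change was -0.18, against -0.57 without pls4 replicate 2. NCED3 ranked above only 7.27% of the tested loci by mean level.

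NCED4, the remaining synthesis gene, was listed at 0.12 and 0.02 FPKM in pls4 and at 0.22, 0.15 and 0 FPKM in wild type. No library reached an FPKM of 1 and the genotypes overlapped, so no fold change is given. At unknown depth a listed 0 does not show that the transcript was absent.

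ABA8OX2 was the catabolism gene with a call. It stood at 20.48 and 21.37 FPKM in pls4, against 24.19, 24.90 and 24.69 FPKM in wild type. The genotypes did not overlap and the spread within each was small, with means of 20.9 ± 0.63 FPKM in pls4 (SD, n = 2) and 24.6 ± 0.36 FPKM in wild type (SD, n = 3). The ratio of means was 0.851 and the log2 fold change -0.22 ± 0.08 (SE; 95% interval -0.41 to -0.04), with a limma adjusted p of 0.0454, close to the threshold. Without wild type replicate 2 or 3, or without pls4 replicate 1 or 2, the call was lost, at limma adjusted p-values between 0.114 and 0.197. It was also lost with the replicate block (limma, adjusted p = 0.258) and without a variance trend (limma, adjusted p = 0.0692). When each library was scaled by its median ratio, the log2 fold change was -0.39, more than 1.5 times the value on deposited FPKM, and the call was kept.

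ABA8OX3, a gene whose lowered expression in rice has been linked to drought tolerance, was the most abundant of the 6. It measured 26.01 and 25.86 FPKM in pls4, against 26.02, 32.88 and 27.24 FPKM in wild type. The pls4 libraries lay 0.01 FPKM or more below the lowest wild type library, and wild type replicate 2 stood above the other wild type libraries. The log2 fold change was -0.13 ± 0.11 (SE; 95% interval -0.40 to 0.13), which did not pass the test (limma, adjusted p = 0.346). Without wild type replicate 2 it was -0.04. With median ratio scaling it was -0.31 and still did not pass (limma, adjusted p = 0.0785).

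ABA8OX1, which is induced by submergence in rice, had 2.51 and 2.31 FPKM in pls4, against 1.38, 2.33 and 2.34 FPKM in wild type. The genotypes overlapped, and wild type replicate 1 was the low library. The log2 fold change was 0.19 ± 0.17 (SE; 95% interval -0.22 to 0.60) and did not pass the test (limma, adjusted p = 0.383). Without wild type replicate 1 it was 0.03.

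Within a library the 6 genes kept nearly the same order of level. ABA8OX3 exceeded ABA8OX2 in every library, by a ratio of 1.27 and 1.21 in pls4 and of 1.08, 1.32 and 1.10 in wild type. NCED5 came next in every library, below ABA8OX2. ABA8OX1 followed, then NCED3 and NCED4. ABA8OX1 and NCED3 were not separated in wild type, where NCED3 was the higher of the pair in replicate 1. In pls4 ABA8OX1 was above NCED3 in both libraries.

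Among the 3 NCED members, NCED5 was the most abundant, with a larger share in pls4; NCED1 and NCED2, described further on, are not counted here. NCED5 made up 91.2% and 89.7% of the summed FPKM of these 3 genes in pls4, against 76.1%, 74.6% and 74.0% in wild type. NCED3 made up 7.42% and 10.2% in pls4, against 20.8%, 22.5% and 26.0% in wild type. The ratio of NCED5 to NCED3 was 12.3 and 8.83 in pls4, against 3.66, 3.32 and 2.85 in wild type. These shares do not change when all values of a library are scaled by a common factor, and the genotypes were apart in both. Quantile normalization is not of that kind, and the shares were not computed after it. They rest on NCED3 values near 1 FPKM, whose counting error is unknown.

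The make-up of the ABA8OX transcripts overlapped between genotypes for the pair of abundant genes. ABA8OX3 gave 53.1% and 52.2% of the summed ABA8OX FPKM in pls4, against 50.4%, 54.7% and 50.2% in wild type. ABA8OX2 gave 41.8% and 43.1% in pls4, against 46.9%, 41.4% and 45.5% in wild type. Wild type values lay on both sides of the pls4 values for each of these genes. ABA8OX1 gave 5.12% and 4.66% in pls4, against 2.67%, 3.88% and 4.31% in wild type, so its small share was higher in both pls4 libraries.

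Summed over the 3 members, NCED3, NCED4 and NCED5 transcripts reached 8.63 and 11.33 FPKM in pls4, against 6.98, 5.20 and 6.66 FPKM in wild type. The 3 ABA8OX transcripts summed to 49.00 and 49.54 FPKM in pls4, against 51.59, 60.11 and 54.27 FPKM in wild type. The ratio of the ABA8OX sum to this NCED sum was 5.68 and 4.37 in pls4, against 7.39, 11.6 and 8.15 in wild type. Among these 6 genes the ABA8OX sum was the larger in every library, and the ratio was lower in both pls4 libraries than in any wild type library. The choice of genes decides this direction. With NCED1 and NCED2 added, a sum chosen after seeing the data, the total of genes named NCED was 446.22 and 518.28 FPKM in pls4. In wild type it was 846.1, 720.63 and 792.4 FPKM. The ratio was then 0.110 and 0.0956 in pls4, against 0.0610, 0.0834 and 0.0685 in wild type, so both turned. NCED1 alone gave 410.46 and 488.52 FPKM in pls4, and 839.12, 715.43 and 785.71 FPKM in wild type. A part of NCED1 or NCED2 in ABA synthesis is not taken as given, so this total may not describe the synthesis step. The sums are given without a test, since the 6 genes were chosen with earlier results of these data known.

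**Figure D2:**
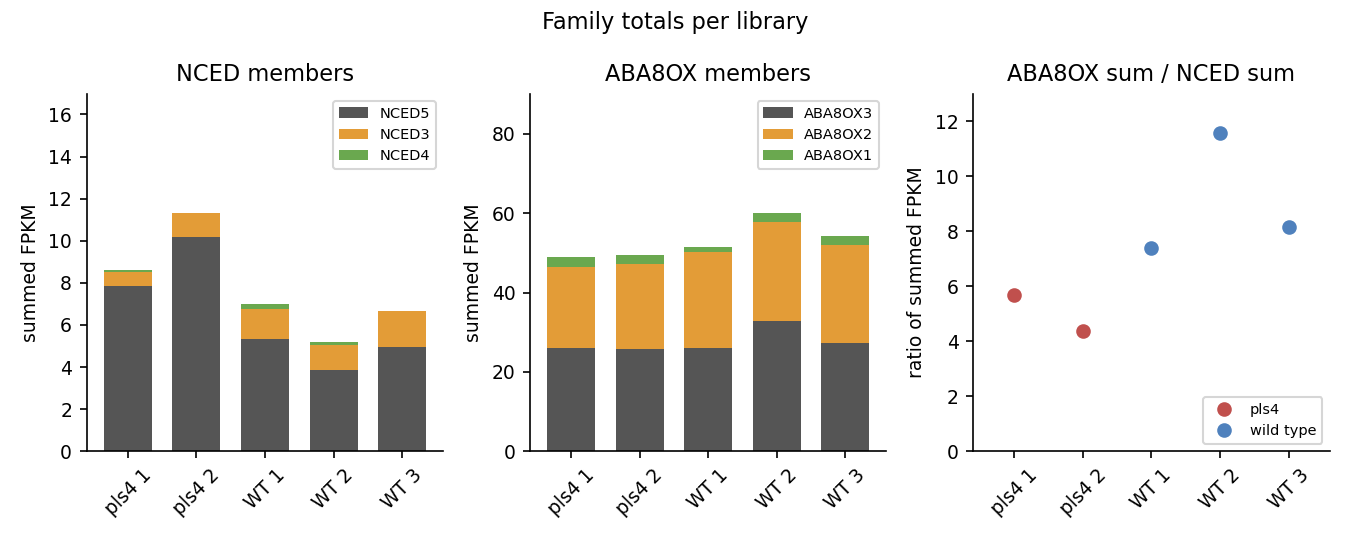
Summed FPKM of NCED3, NCED4 and NCED5 (left) and ABA8OX genes (middle) in each library, divided by gene, and the ratio of the ABA8OX sum to that NCED sum (right; red pls4, blue wild type), all without NCED1 and NCED2. NCED5 fills most of each NCED bar, and the ratio is 5.68 and 4.37 in pls4, below the wild type libraries at 7.39 to 11.6.

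The direction of the 5 tested genes was the same under the 13 other settings wherever a gene could be fitted. Much of this was fixed in advance. Other filters and the fit without a variance trend leave a fold change as it is. The replicate block gave the same fold changes as the fit without wild type replicate 3. Where the genotypes do not overlap, leaving out a library cannot turn the direction. NCED5 ranged from 0.64 to 0.98 on the log2 scale with single libraries left out. With median ratio scaling the median change of all loci went to 0.00, and NCED5 stood at 0.66. That scaling moved the share of higher calls among all calls to 47.1%, against 64.3% on deposited FPKM and 53.0% after quantile normalization. Relative to the median of all tested loci, the changes were 0.66 for NCED5, 0.04 for ABA8OX1, -0.29 for ABA8OX3, -0.37 for ABA8OX2 and -0.53 for NCED3.

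**Figure D3:**
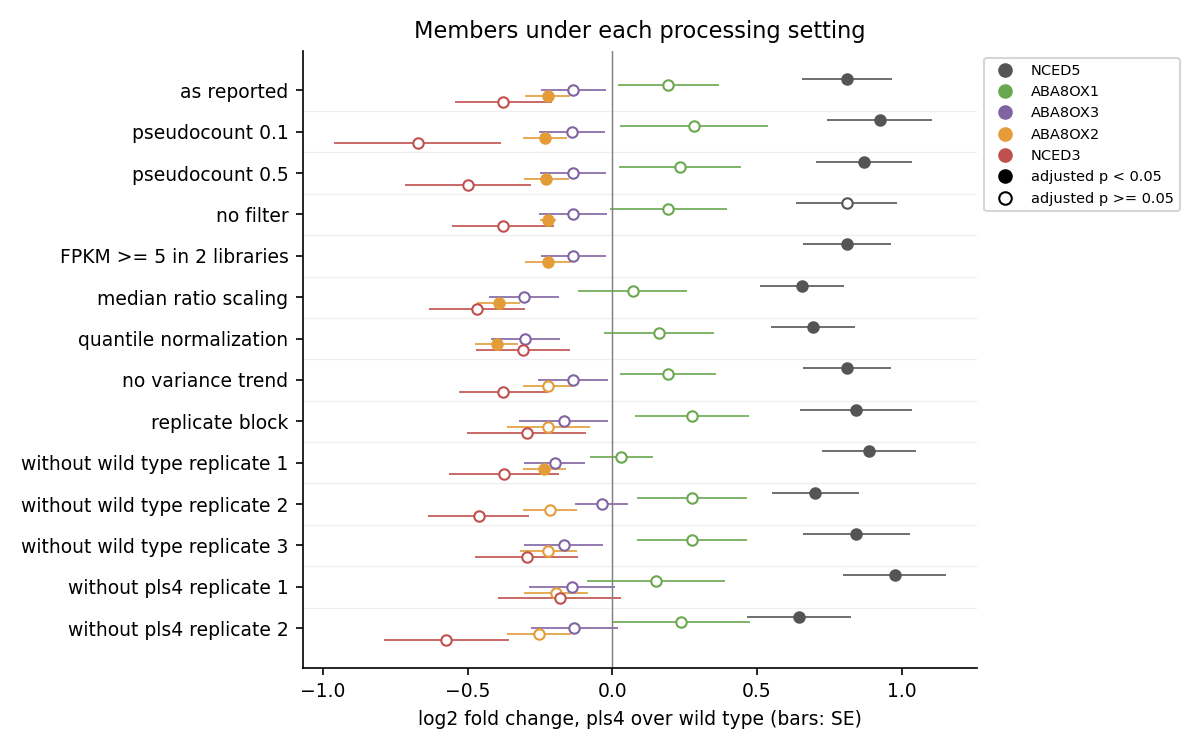
Log2 fold change of pls4 over wild type (x axis; bars SE) for the 5 tested genes under each processing setting (rows; filled points have an adjusted p under 0.05). NCED5 stays between 0.64 and 0.98 and loses its call in the row without a filter, ABA8OX2 keeps a negative value and loses its call in 6 rows, and NCED3 and ABA8OX1 have no point in the row with the stricter filter.

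Other genes of the ABA pathway, listed by role, changed in both directions. Of 50 listed genes 40 were tested, and 15 were called higher and 10 lower, or 62.5% called against 52.0% of all tested loci. The balance turned with the scaling, to 10 higher and 15 lower with median ratio scaling and 10 higher and 14 lower after quantile normalization. Without pls4 replicate 2 the counts were 9 and 7, and without pls4 replicate 1 they were 11 and 5. Without wild type replicate 2, and likewise without wild type replicate 3, they were 11 and 6, and with the replicate block 10 and 6. Their median log2 fold change was 0.14, near the 0.15 of all tested loci. Of the 24 genes named by the naming rule and called, 13 kept their call under all alternatives run for them.

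Of the other synthesis genes, 3 of 6 tested were higher and 2 lower, or 83.3% called against 52.0% of all tested loci. Without pls4 replicate 2, 1 was higher, and without any 1 of the 5 libraries 1 was lower. ABA3, which makes the sulfurated molybdenum cofactor of the last synthesis enzyme, rose to 17.7 ± 0.83 FPKM in pls4 (SD, n = 2), against 9.26 ± 0.66 in wild type (SD, n = 3), a log2 fold change of 0.87. ABA4, needed for neoxanthin, was also higher (0.52), and ZEP, zeaxanthin epoxidase, was lower (-0.23). Both calls ended under quantile normalization, under the block and in fits that lacked wild type replicate 2, wild type replicate 3 or pls4 replicate 2. NCED1 (Os02g0704000) and NCED2 (Os12g0435200) share the name of the synthesis family, and their part in ABA synthesis is not taken as given here. NCED1 fell to 410.46 and 488.52 FPKM in pls4, against 839.12, 715.43 and 785.71 FPKM in wild type (log2 fold change -0.80), levels far above those of NCED3, NCED4 and NCED5. NCED2 was listed at 27.13 and 18.43 FPKM in pls4, against 0, 0 and 0.03 FPKM in wild type. It passed the filter only through the pls4 libraries, so it could be called only higher, and its fitted change of 4.53 depends on the pseudocount. NCED2 counts among the 3 higher genes here, the 15 higher genes of all lists and the 13 that kept their call. With either pls4 library left out it could not be fitted, so 11 alternatives were run for it.

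**Figure D4:**
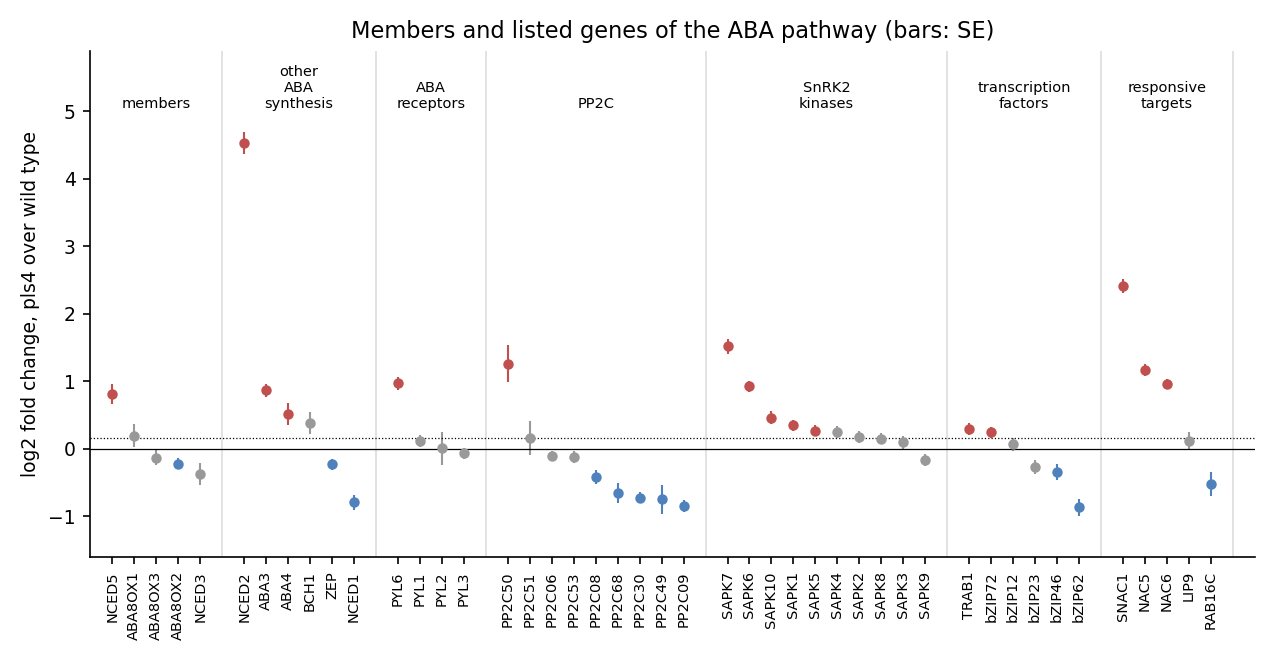
Log2 fold change of pls4 over wild type (y axis; bars SE) for the 5 tested members and the 40 tested genes of the 6 pathway lists, sorted within each list; red points were called higher, blue lower and grey not called, and the dotted line is the median of all tested loci (0.15). On these deposited FPKM the SnRK2 calls are all above 0 and 5 of the 6 PP2C calls below 0, while with median ratio scaling 1 SnRK2 gene was called lower.

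In signalling, the ABA receptors of the PYL family bind the hormone and then block PP2C phosphatases, which frees SnRK2 kinases to act on bZIP transcription factors. Of 4 tested receptor genes (25.0% called) PYL6 rose (log2 fold change 0.97) and 3 did not pass, 1 of which was called lower under both scalings. Of 9 PP2C genes 5 fell and 1 rose on deposited FPKM, or 66.7% called against 52.0% of all tested loci (18.5% lower). PP2C49 (0.84 and 1.46 FPKM in pls4) and PP2C68 (0.69 and 1.18 FPKM in pls4) are among those that fell. Both passed the filter only with wild type libraries counted, and both count among the 10 lower genes of all lists. The number that fell was 2 without pls4 replicate 1 and with no filter, 3 with the stricter filter, and 7 with median ratio scaling or quantile normalization. PP2C09 was at 21.7 ± 1.54 FPKM in pls4 (SD, n = 2) and 39.8 ± 2.60 in wild type (SD, n = 3), a log2 fold change of -0.85, and PP2C30 changed by -0.73. PP2C50 went the other way, by 1.26, a call lost with no filter. Of 10 SnRK2 genes 5 rose and none fell on deposited FPKM, and 50.0% called is near the 52.0% of all tested loci. SAPK7 changed by 1.52, SAPK6 by 0.92 and SAPK10 by 0.46, while SAPK9 (-0.17) did not pass. The list was not divided by which of these kinases respond to ABA. Under either scaling 3 SnRK2 genes were higher and 1 lower. Without pls4 replicate 1, without pls4 replicate 2 and with the replicate block 3 were higher. Of 6 tested transcription factor genes 2 were called higher and 2 lower (66.7% called), and bZIP62 had the largest change among them (-0.87). None of these was called higher under either scaling or with the replicate block. When any library other than wild type replicate 1 was left out, none was called higher and 1 lower.

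Among listed ABA-responsive targets, 5 of 11 were tested, with 3 called higher and 1 lower. These are 4 calls among 5 tested genes, while 52.0% of all tested loci were called, 33.4% as higher and 18.5% as lower. Whether so few genes differ from that share was not tested. The 3 called higher were stress-responsive NAC transcription factor genes, which respond to ABA and to other signals. SNAC1 reached 141.93 and 175.56 FPKM in pls4, against 28.14, 30.32 and 28.19 FPKM in wild type (log2 fold change 2.41), and NAC5 and NAC6 changed by 1.17 and 0.96. The dehydrin gene RAB16C fell (-0.52), a call that ended when wild type replicate 2, wild type replicate 3 or pls4 replicate 2 was left out, and under other settings. RAB16C lies among close copies, between which reads may have been split. LEA3, RAB16A, RAB16B, RAB16D, WSI18 and SALT were under the filter, and RAB16A was listed at 0 in every library.

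By the shape of their profile over the 5 libraries, the listed gene most like NCED5 was ABA4 (Pearson r = 0.97), the one most like ABA8OX2 was PP2C30 (r = 0.98) and the one most like NCED3 was PP2C68 (r = 0.90). For ABA8OX3 it was bZIP46 (r = 0.72) and for ABA8OX1 it was PP2C50 (r = 0.57). Each r describes 5 libraries and 40 candidate genes, and the difference between genotypes enters all of them.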

How the data were processed

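Per the labels, Trizol was used to isolate leaf RNA and a TruSeq kit to build the libraries. The authors deposited 1 FPKM value per locus and library, per the file headers. The submitters' processing notes name TopHat2 (2.1.1) and the genome build IRGSP-1.0. The tool that counted fragments and its annotation are not named there. FPKM are relative values, so a change in a few abundant transcripts shifts all others.

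The fit used limma (3.58.1, under R 4.3.3), with log2(FPKM + 1) as the response, genotype as the term and a variance trend, for the 19637 loci that reached 1 FPKM in 2 or more libraries. Groups came from the sample titles. The procedure was also run on simulated data, with few changed loci. These were all more abundant in wild type than any NCED member, and their changes were larger than those of the members. That run therefore gives no error rate for these genes. Alternatives were other pseudocounts, filters and scalings, no variance trend, a replicate block, and leaving out each library.

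The members and lists were chosen with earlier results of these data known. Names are published symbols, and their pairs with identifiers were recalled from the rice literature. Where the RefSeq gene table (assembly ASM3414082v1) holds the symbol, its chromosome and gene order were compared, within 0.05 of the chromosome. Of the 6 members 4 agreed, and the symbols NCED4 and NCED5 are not in that table. Of 52 pathway pairs 31 agreed, 2 (the synthesis gene ABA2 and the receptor gene PYL5) disagreed and were dropped, and 19 were unchecked. Among the unchecked were NCED1, NCED2, ABA3, ABA4, all PYL receptors that were kept, bZIP62, bZIP46, bZIP72, RAB16A, WSI18 and SNAC1. Of 16 marker pairs 11 agreed and 5, the RBCS genes and Lhcb1, were unchecked. No coordinates are given because the table's assembly is not the authors' build. Named from the lists were up to 4 called genes with the largest change and the 2 most abundant tested genes of each list. The gene most like each member was also named. Other symbols appear only as untested or dropped genes, except LIP9, the remaining tested target.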

Additional observations from a re-analysis of the deposited data

How the results depend on the processing

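NCED5 stood at 0.64 to 0.98 on the log2 scale with single libraries left out. With no filter it lost its call (0.81, limma adjusted p = 0.0512), and NCED4 stood at -0.07 (limma adjusted p = 0.822). ABA8OX2 lost its call with no variance trend (-0.22) and with the replicate block (-0.22), and stood between -0.25 and -0.19 with single libraries left out. The number of members called was 1 with no filter, with no variance trend and with the replicate block, and 1 to 2 with single libraries left out. With single libraries left out NCED3 ranged from -0.57 to -0.18, ABA8OX1 from 0.03 to 0.28 and ABA8OX3 from -0.20 to -0.04. When 2 or more libraries had to reach 5 FPKM, NCED3 and ABA8OX1 could not be fitted. Of the pathway genes, 5 were called lower with no filter, 6 with that stricter filter and 6 with the replicate block. With single libraries left out 9 to 16 were called higher and 5 to 9 lower, the 9 higher without pls4 replicate 2. PYL1 stood at 0.12, and at -0.052 after both median ratio scaling and quantile normalization, without passing the test. Over all loci 4284 were called higher with median ratio scaling, and 3997 (without pls4 replicate 2) to 6794 with single libraries left out, against 6566. The cause of these shifts was not tested beyond the settings named.

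Wild type and pls4 share the numbers 1 and 2 in their titles. Deviations from the genotype means of same-numbered libraries correlated at -0.10 (number 1) and -0.14 (number 2) over the tested loci. With 2 pls4 libraries the deviations mirror each other. Pls4 replicate 2 with wild type replicate 1 therefore gave 0.095, and pls4 replicate 1 with wild type replicate 2 gave 0.138. Such values cannot decide whether libraries were paired. The labels name no batch, and the numbers were not taken as pairs. With the replicate block, in which wild type replicate 3 has no partner, NCED5 stood at 0.84 and ABA8OX2 at -0.22.

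Where a library was left out of pls4, the remaining one was assumed to vary like the wild type libraries. Depth is unknown, so the counting error of NCED3, NCED4 and ABA8OX1, the lowest values, cannot be given.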
